A study of Mus musculus with 10 samples.

Results

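Branched-chain amino acid catabolism is represented here by 10 genes: Bcat2, Bckdha, Bckdhb, Dbt, Ivd, Mccc1, Mccc2, Auh, Pcca and Pccb. They were chosen by name from the 40501 gene identifiers of the count table, each name matched 1 identifier, and all 10 were among the 14913 genes with enough counts to be tested. The RNA came from inguinal white adipose tissue, a subcutaneous fat depot, of male C57/BL6J mice on chow. The 5 Control mice were Cre-negative. The 5 PexRAP-AKO mice were Cre-positive and had PexRAP deleted in adipose tissue. PexRAP, or ADHAPR, is the enzyme encoded by Dhrs7b that reduces acyl and alkyl dihydroxyacetone phosphate in ether lipid synthesis. The labels give both a feeding period of 8 weeks and an age of 8 weeks, so how old the mice were when tissue was taken is not clear. They do not name the Cre driver. The labels number the samples within each group without saying more about their origin, so p-values measure the spread between these samples.

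Leucine, isoleucine and valine are broken down in mitochondria. Bcat2 removes the amino group, and the branched-chain ketoacid dehydrogenase complex (BCKDH), built from E1 (Bckdha and Bckdhb), E2 (Dbt) and the shared E3 (Dld), then commits the ketoacid to oxidation. The leucine arm runs through isovaleryl-CoA dehydrogenase (Ivd), methylcrotonyl-CoA carboxylase (Mccc1 and Mccc2) and methylglutaconyl-CoA hydratase (Auh). Isoleucine and valine end in propionyl-CoA, which the carboxylase made of Pcca and Pccb passes on to a cobalamin-dependent mutase. Adipocytes carry this pathway at high level, white and brown alike, and can send its acetyl-CoA and propionyl-CoA into fatty acids.

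Libraries held 11274865 to 19881168 counts. Dhrs7b, the targeted gene, was at 61.2 to 95.8 CPM (counts scaled to a common library size) in Control and at 17.9 to 22.8 CPM in PexRAP-AKO libraries. White adipocyte markers were high in each library, with Adipoq at 1867.52 to 2919.62 CPM. The libraries differed in markers of other cells. The mean of 14 brown adipocyte markers (log2 CPM) ran from 3.45 to 6.19 in Control and from 4.51 to 6.46 in PexRAP-AKO, and Ucp1 from 28.6 to 1159.16 and from 94.2 to 1603.34 CPM. Skeletal muscle Ckm was at 0.50 to 131.1 CPM in Control libraries and 0 to 8.90 CPM in PexRAP-AKO libraries, and all 11 muscle markers tested had a negative log2 fold change. The T cell gene Cd3e stood at 8.27 CPM in PexRAP-AKO replicate 6 against at most 1.54 CPM elsewhere. The mean of 8 endothelial markers was 6.48 to 6.77 in Control and 5.94 to 6.49 in PexRAP-AKO. In whole tissue, fewer cells of a type and less RNA per cell cannot be told apart.

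The 10 core enzymes showed no change that passed the test, and their fold changes were bounded closely. None of the 10 passed edgeR's quasi-likelihood test over all genes (Benjamini-Hochberg adjusted p from 0.324 to 0.989, threshold 0.05), where 0.101% of all genes tested did, and 0.0939% in the higher direction. At an unadjusted p under 0.05 there were also 0 of 10, against 15.5% of all genes, and DESeq2 called 0 of 10, against 4.27% of the genes to which it gave an adjusted p. In none of the 10 did the groups separate without overlap, as they did for 3.41% of all genes. Their median log2 fold change, PexRAP-AKO over Control, was 0.01, that of all genes tested was -0.00, and their range ran from -0.05 to 0.16. The 95% intervals of all 10 lay within 1.5-fold in either direction, and those of 9 within 1.25-fold, Bckdha being the exception. With the mean of brown adipocyte markers as a covariate, the largest shifts were those of Mccc2 (from -0.05 to 0.03), Auh (0.08 to 0.16) and Pccb (0.10 to 0.15), and none passed. With the mean of skeletal muscle markers instead, every member's value was lower and none passed. The largest shifts were then those of Bckdha (0.16 to 0.09), Bckdhb (0.01 to -0.06) and Ivd (-0.02 to -0.08). The members' median was 0.02 with the brown and -0.02 with the muscle marker mean. Gene positions below are on GRCm38. The members were counted deeply, with 1041 to 9963 reads per gene and library.

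**Figure D1:**
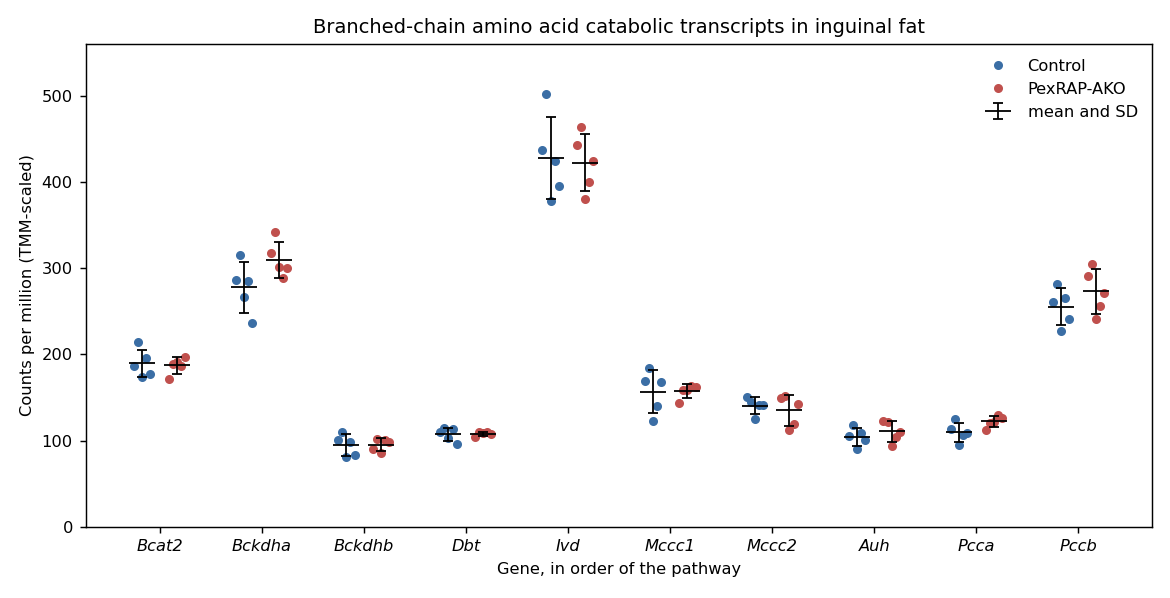
CPM, read counts scaled to a common library size (vertical axis, from 0), of the 10 enzymes in each of the 5 Control (blue) and 5 PexRAP-AKO (red) libraries, with the mean and SD of each group in black. The groups overlap for every gene, and for Mccc1 the Control libraries (122 to 184 CPM) spread more widely than the PexRAP-AKO libraries (143 to 163 CPM).

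The DNA between genes that start back to back is shown for Mmab, the cobalamin adenosyltransferase and the one gene of the wider pathway called, and for Bckdha, the core enzyme with the highest level per length. Ivd follows as the member with the most CCAAT in its promoter window, 4, of which the printed stretch holds 3. Bckdhb follows as the member whose window holds both marked motifs and the nuclear receptor motif searched below. The printed stretch of Bckdhb does not reach that nuclear receptor motif, and it holds 2 of the 3 GGGCGG in the window. Mccc1 and Mccc2, with 3 CCAAT each, are not printed. Sequences are RefSeq's (GRCm38.p6), cut back to bases in no annotated exon. Capitals mark CCAAT and GGGCGG on either strand.
Mmab to Mvk, chr5:114444074-114444263, minus strand: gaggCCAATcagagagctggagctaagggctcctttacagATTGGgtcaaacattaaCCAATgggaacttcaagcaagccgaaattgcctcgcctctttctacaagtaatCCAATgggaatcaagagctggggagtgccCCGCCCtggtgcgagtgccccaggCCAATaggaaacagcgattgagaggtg
Bckdha to Exosc5, chr7:25658982-25659152, plus strand: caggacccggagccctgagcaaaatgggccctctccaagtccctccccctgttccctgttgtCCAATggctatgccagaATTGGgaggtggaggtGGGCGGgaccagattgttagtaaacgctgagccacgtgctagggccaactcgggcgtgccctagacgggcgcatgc
Ivd, chr2:118861744-118861953, plus strand: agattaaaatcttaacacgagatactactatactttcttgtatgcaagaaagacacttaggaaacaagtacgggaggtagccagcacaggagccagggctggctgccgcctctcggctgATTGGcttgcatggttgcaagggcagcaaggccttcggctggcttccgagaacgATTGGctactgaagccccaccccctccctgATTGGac
Bckdhb, chr9:83925023-83925110, plus strand: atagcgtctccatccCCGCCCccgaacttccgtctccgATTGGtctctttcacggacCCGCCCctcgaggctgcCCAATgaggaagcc
The start sites of Mmab and Mvk, the mevalonate kinase of sterol synthesis, lie 209 bases apart in GENCODE M21, and the printed stretch holds 5 CCAAT boxes and 1 GGGCGG. Mvk was at 21.1 to 28.6 CPM in Control libraries and 23.2 to 39.7 CPM in PexRAP-AKO libraries, with overlap, and its log2 fold change of 0.30 (SE 0.14) did not pass edgeR (adjusted p = 0.326). Bckdha and Exosc5, a subunit of the RNA exosome, start 183 bases apart, with log2 fold changes of 0.16 and 0.17 (edgeR adjusted p = 0.396 and 0.246). Bckdhb also starts back to back with a gene on the other strand, the lincRNA Gm36278, 123 bases away.

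RefSeq promoter windows were matched for 9 of the 10 members (not Dbt), and the 250 bases before each start were searched on both strands. CCAAT was found in 5 of 9 (Bckdhb, Ivd, Mccc1, Mccc2 and Pcca), against 33.8% of 32851 promoters, and GGGCGG in 4 of 9, against 32.7%. The nuclear receptor motif AGGTCA was found in Bckdhb alone, against 4607 of the 32851 promoters. TATAAA, against 12.4%, and AAGGTCA, against 4.08%, were in none of the 9 windows. AAGGTCA contains AGGTCA. The RefSeq window of Bckdha holds none of these motifs and is not the stretch printed above, which comes from the window of Exosc5. That stretch, with 2 CCAAT and 1 GGGCGG, does not enter the counts of members, which depend on where the window of Bckdha was placed.

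At the first step, Bcat2 (ENSMUSG00000030826, chr7:45570153-45589711, plus strand), the mitochondrial aminotransferase, was at 186, 214, 174, 196 and 177 CPM in Control replicates 2, 3, 5, 7 and 8. It was at 172, 189, 191, 186 and 197 CPM in PexRAP-AKO replicates 1, 2, 3, 5 and 6. PexRAP-AKO replicate 1 was the lowest and Control replicate 3 the highest of the 10, with the rest intermixed, and the log2 fold change was -0.02 (SE 0.07, 95% interval -0.17 to 0.13). Bcat1, the cytosolic enzyme for the same reaction, had 3.70 ± 1.21 CPM in Control against 5.73 ± 3.30 CPM in PexRAP-AKO (SD, n = 5 each). Its log2 fold change of 0.61 had an interval of -0.20 to 1.41, and it was 0.22 with the mean of brown adipocyte markers as a covariate. Bcat2 overlaps the exons of the antisense gene 0610005C13Rik over 622 bases, and no label says whether the counting used strand.

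Bckdha (ENSMUSG00000060376, chr7:25629946-25658981, minus strand) encodes the E1 alpha chain, which carries the serines whose phosphorylation shuts the complex off. It stood at 286, 315, 266, 285 and 236 CPM in Control replicates 2, 3, 5, 7 and 8, and at 318, 342, 301, 288 and 300.4 CPM in PexRAP-AKO replicates 1, 2, 3, 5 and 6. All PexRAP-AKO values were above 4 of the 5 Control values, and Control replicate 3 lay among them. The log2 fold change was 0.16 (SE 0.08, interval -0.02 to 0.34, edgeR adjusted p = 0.396), and 0.09 with the mean of skeletal muscle markers as a covariate. Of its 1899 exonic bases, 1171 are shared with exons of B3gnt8 on the other strand, which was at 3.74 CPM or less in each library, so the level of Bckdha is uncertain.

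The other chains of the complex particular to it lay nearer to 0. Bckdhb (ENSMUSG00000032263, chr9:83925145-84124240, plus strand), the E1 beta chain, had 94.9 ± 12.2 CPM in Control against 95.4 ± 7.37 CPM in PexRAP-AKO (SD, n = 5 each). Its log2 fold change was 0.01 (interval -0.19 to 0.20). Dbt (ENSMUSG00000000340, chr3:116513070-116549981, plus strand), the lipoate-bearing E2 core, was at 107 ± 7.91 and 108 ± 2.28 CPM, with a log2 fold change of 0.01 (interval -0.12 to 0.13). It had the least spread of the members in PexRAP-AKO, from 104 CPM in replicate 1 to 109.56 CPM in replicate 2.

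Dld is the E3 chain that BCKDH shares with the pyruvate and oxoglutarate dehydrogenases. It was at 212, 242, 214, 183 and 176 CPM in Control replicates 2, 3, 5, 7 and 8 and at 227, 275, 285, 296 and 239 CPM in PexRAP-AKO replicates 1, 2, 3, 5 and 6. The groups overlapped through Control replicate 3, and the log2 fold change of 0.36 (SE 0.10) did not pass edgeR over all genes (adjusted p = 0.170). With the brown adipocyte marker mean as a covariate the value was 0.21, more than 1.5 times smaller.

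In the leucine arm the members' log2 fold changes lay between -0.05 and 0.08. Ivd (ENSMUSG00000027332, chr2:118861954-118882909, plus strand), which oxidises isovaleryl-CoA, had 427 ± 47.7 CPM in Control against 422 ± 33.3 CPM in PexRAP-AKO (SD, n = 5 each), with a log2 fold change of -0.02 (interval -0.22 to 0.18). Mccc1 (ENSMUSG00000027709, chr3:35959312-36000678, minus strand), the biotin-carrying carboxylase subunit, was at 169, 184, 122, 140.2 and 168 CPM in Control replicates 2, 3, 5, 7 and 8 and at 143, 159, 158, 163 and 162 CPM in PexRAP-AKO replicates 1, 2, 3, 5 and 6. The Control values enclosed all PexRAP-AKO values, and the log2 fold change was 0.00 (interval -0.22 to 0.23). On the other strand, exons of the antisense genes Mccc1os and Gm15952 cover 198 and 94 bases of Mccc1, and the pseudogene B230207O21Rik covers 321.

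Mccc2 (ENSMUSG00000021646, chr13:99948530-100015639, minus strand), the carboxyltransferase subunit, was at 151, 145, 125, 141 and 141 CPM in the Control libraries in the same order and at 149.9, 152, 113, 119.7 and 143 CPM in the PexRAP-AKO libraries. PexRAP-AKO replicates 3 and 5 were the lowest of the 10, and the log2 fold change was -0.05 (interval -0.25 to 0.15). Auh (ENSMUSG00000021460, chr13:52835119-52929681, minus strand), which hydrates methylglutaconyl-CoA, had a log2 fold change of 0.08 (interval -0.11 to 0.28), with 104 ± 10.4 CPM in Control against 111 ± 12.03 CPM in PexRAP-AKO (SD, n = 5 each).

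At the propionate end, Pcca (ENSMUSG00000041650, chr14:122534324-122891100, plus strand), the biotin-carrying subunit of propionyl-CoA carboxylase, was at 113, 125, 94.8, 106 and 108 CPM in Control replicates 2, 3, 5, 7 and 8. It was at 112, 120.3, 122, 129.8 and 127 CPM in PexRAP-AKO replicates 1, 2, 3, 5 and 6. The groups overlapped, since Control replicates 2 and 3 lay above PexRAP-AKO replicate 1. The log2 fold change was 0.16 (SE 0.07, interval -0.00 to 0.32), with the lowest unadjusted p of the members (0.0502) and an edgeR adjusted p of 0.324.

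Pccb (ENSMUSG00000032527, chr9:100982032-101034898, minus strand), its partner, had 255 ± 21.4 CPM in Control against 273 ± 25.9 CPM in PexRAP-AKO (SD, n = 5 each), with a log2 fold change of 0.10 (interval -0.09 to 0.28). Downstream, Mcee, the methylmalonyl-CoA epimerase, had a log2 fold change of 0.28 (interval -0.00 to 0.56), and of 0.09 with the brown marker mean as a covariate. Mmut, the mutase itself, listed in the table under its older symbol Mut, was at 0.14 (interval -0.02 to 0.30).

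Per kilobase of annotated exon, the members spanned a wide range of levels. In Control, Bckdha was at 146.2 ± 15.4 CPM per kb, Pccb at 92.1 ± 7.71, Ivd at 77.6 ± 8.66, and Auh lowest at 10.9 ± 1.09 (SD, n = 5 each). Bckdhb at 52.6 ± 6.78, Mccc2 at 50.1 ± 3.45 and Bcat2 at 48.6 ± 4.14 CPM per kb did not differ beyond their spread. Dbt followed at 32.02 ± 2.36, Pcca at 20.99 ± 2.09 and Mccc1 at 14.3 ± 2.29 CPM per kb. In PexRAP-AKO the order was the same. The exon length counts every annotated transcript, so long annotated exons lower the value of Mccc1 (10952 bases) and Auh (9580 bases).

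The members' mean log2 CPM ran from 7.19 to 7.53 among Control and from 7.31 to 7.49 among PexRAP-AKO libraries, with group means of 7.36 ± 0.13 and 7.40 ± 0.07 (SD, n = 5 each), so the libraries of 1 group differed more than the groups. Control replicate 3 held the highest value of 5 members and stood above the 10-library mean for all 10, while Control replicate 5 held the lowest value of 6 and was above the mean for none. PexRAP-AKO replicates 2 and 6 were also above the mean for all 10 members. Control replicates 3 and 5 were the most deeply sequenced libraries, at 19881168 and 18787394 counts. Control replicate 5 also had the highest brown marker mean of its group (6.19). Its white adipocyte marker mean was the lowest (10.68, against 10.91 to 11.02 in the other Control libraries). Its means of 8 macrophage markers (7.151, against 6.056 to 6.325) and 8 progenitor and fibroblast markers (8.626, against 8.099 to 8.552) were the highest of its group. The part of these markers in the result was not tested.

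Some members moved together across the 10 libraries and others did not. Over the 45 pairs, Pearson's r of log2 CPM had a median of 0.56, from -0.04 for Mccc2 with Pcca to 0.97 for Auh with Pccb. Ivd followed Auh (0.87) and Pccb (0.85), while Mccc2 was nearly unrelated to Dbt (0.05) and Bcat2 (0.08). After group means were removed the median was again 0.56. These values describe 10 libraries that share their scaling factors. Among 12965 genes outside the lists, those most like the members' mean standardised level were Aco1 (Pearson's r 0.95, Spearman's rho 0.87), Cpped1 (0.94, 0.83), Asns (0.94, 0.94), Mkln1 (0.91, 0.88), Prkce (0.90, 0.88) and Gys1 (0.90, 0.86), over 10 libraries.

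The ratio of the kinase to the phosphatase that set the phosphorylation of E1 passed a test among 4 ratios chosen with earlier results known. Bckdk, the kinase that switches BCKDH off, was at 93.0, 91.9, 87.1, 82.1 and 76.7 CPM in Control replicates 2, 3, 5, 7 and 8 and at 88.3, 109, 97.7, 95.7 and 96.1 CPM in PexRAP-AKO replicates 1, 2, 3, 5 and 6. Ppm1k, the phosphatase that switches it back on, was at 39.55, 36.6, 35.96, 42.9 and 41.5 CPM in the Control libraries and at 28.7, 23.02, 35, 29.5 and 34.5 CPM in the PexRAP-AKO libraries. Bckdk was higher in 4 of 5 PexRAP-AKO libraries than in any Control library, and each PexRAP-AKO value of Ppm1k lay below each Control value. Groups separated downward in this way for 1.33% of all genes. Neither gene passed edgeR over all genes: the log2 fold change was 0.18 for Bckdk (SE 0.07, adjusted p = 0.264) and -0.38 for Ppm1k (SE 0.11, adjusted p = 0.163).

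The ratio of Bckdk to Ppm1k counts within a library, which no scaling between libraries can alter, was 2.35, 2.51, 2.42, 1.92 and 1.85 in Control replicates 2, 3, 5, 7 and 8. It was 3.07, 4.72, 2.79, 3.25 and 2.78 in PexRAP-AKO replicates 1, 2, 3, 5 and 6. Each PexRAP-AKO ratio was above each Control ratio, PexRAP-AKO replicate 2 being the highest. Ppm1k alone already separated the groups, and how often other pairs of genes separate in this way was not examined. The mean log2 ratio was 1.13 ± 0.21 in Control against 1.70 ± 0.31 in PexRAP-AKO (SD, n = 5 each), a difference of 0.57. The exact two-sided permutation p was 0.00794, the smallest that 5 against 5 allows, and 0.0317 after Benjamini-Hochberg adjustment over the 4 ratios examined, which were chosen with earlier results of these data known. The adjusted p was 0.0635 without Control replicate 8 or without PexRAP-AKO replicate 2. It was 0.114 without Control replicate 8 and PexRAP-AKO replicate 6 together, a setting chosen after seeing the data. The exact permutation p was 0.0159 without Control replicate 8 and also without PexRAP-AKO replicate 2. It stayed at 0.00794 without any other single library, so leaving out 1 library did not by itself raise the smallest p. Without Control replicate 8 and PexRAP-AKO replicate 6 together, the exact permutation p of 0.0286 was the smallest that 4 against 4 allows. In all of these settings each remaining PexRAP-AKO ratio was still above each remaining Control ratio. Within Control, the ratio was 2.35 to 2.51 in the 3 libraries with the higher brown marker means (5.04 to 6.19) and 1.92 and 1.85 in replicates 7 and 8, with the lower ones (3.80 and 3.45). Within PexRAP-AKO, replicates 1, 2, 3, 5 and 6 had brown marker means of 4.51, 5.75, 6.46, 6.44 and 5.69. Their ratios, given above in the same order, did not rise with these means. The part of these markers in the ratio was not tested. With the brown marker mean as a covariate, the log2 fold change was -0.34 for Ppm1k and 0.10 for Bckdk, the latter more than 1.5 times smaller.

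**Figure D2:**
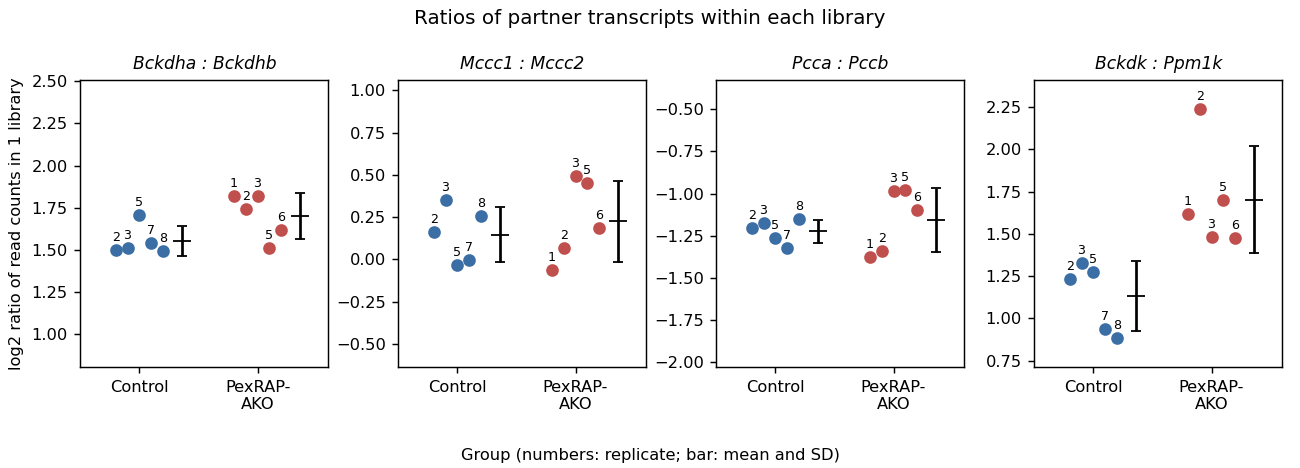
Log2 ratio of read counts of 2 partner genes in each library (vertical axes with the same span but different origins), by group, with replicate numbers and the mean and SD in black. For Bckdk to Ppm1k every PexRAP-AKO library lies above every Control library, whereas the groups overlap for the 3 pairs of subunits.

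The other 3 ratios compare subunits of 1 enzyme, and none passed. The mean log2 ratio of Bckdha to Bckdhb was 1.55 ± 0.09 in Control against 1.70 ± 0.13 in PexRAP-AKO (SD, n = 5 each, exact two-sided permutation p = 0.0714, adjusted p = 0.143). Without PexRAP-AKO replicate 5 the difference was 0.20, with an adjusted p of 0.0476. For Mccc1 to Mccc2 the means were 0.15 ± 0.16 and 0.22 ± 0.24 (exact p = 0.556), and for Pcca to Pccb -1.22 ± 0.07 and -1.16 ± 0.19 (exact p = 0.460). In the last 2, PexRAP-AKO replicates 3 and 5 were the highest of the 10 libraries and replicate 1 the lowest, so the spread inside PexRAP-AKO exceeded the difference between groups.

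Around the core, 35 further genes of transport, oxidation, cofactor supply and control were listed, and all 35 were tested. One passed edgeR over all genes, Mmab, and it was higher. At an unadjusted p under 0.05, 14 of 35 were higher and 2 lower, against 9.01% and 6.44% of all genes. Groups separated without overlap for 4 upward (Acat1, Mmab, Mmachc and Slc25a44) and for Ppm1k downward, against 2.08% and 1.33% of all genes. The median log2 fold change was 0.18. It was 0.11 with the brown marker mean and 0.13 with the muscle marker mean as a covariate. DESeq2 called 6 of the 35, of which Ppm1k was lower and Dld, Acat1, Mmab, Mmachc and Etfdh higher, against 4.27% of the genes to which it gave an adjusted p. Brown adipocyte markers stood the same way, 12 of 14 with a positive log2 fold change and 0 past the test. Their part in these values was examined only through the brown marker mean as a covariate.

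**Figure D3:**
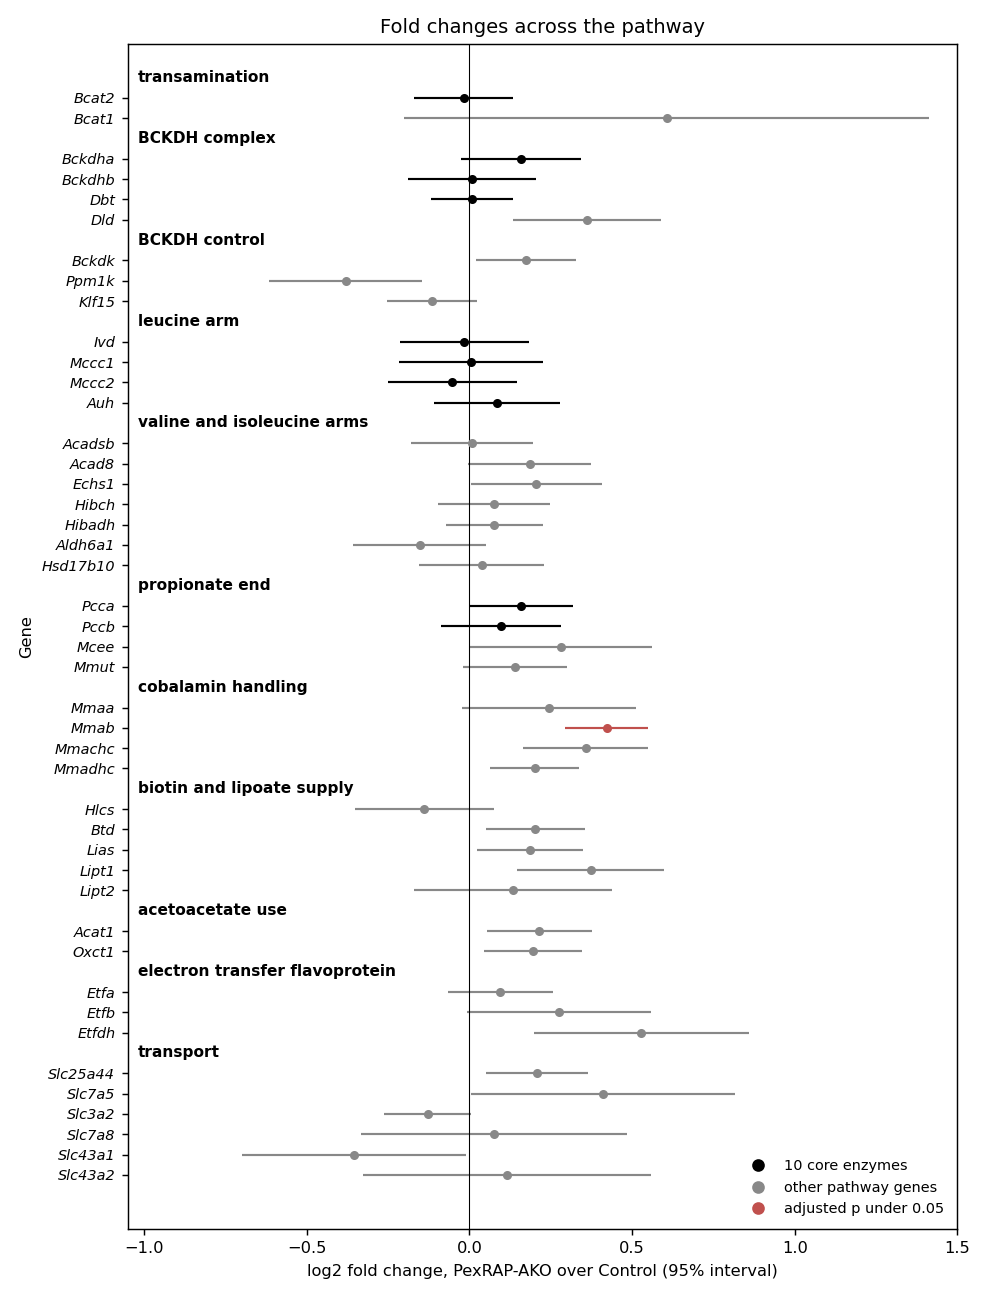
Log2 fold change of PexRAP-AKO over Control (horizontal axis) with its 95% interval for 44 genes, grouped by role. The 10 core enzymes (black) lie between -0.05 and 0.16 with intervals that span 0, and Mmab (red) is the one gene past the adjusted threshold.

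Genes that handle cobalamin, the cofactor of Mmut, all had a positive log2 fold change, 4 of 4, as did 7433 of the 14913 genes tested, and 1 passed, against 0.101% of all genes. Mmab (ENSMUSG00000029575, chr5:114431034-114444060, minus strand), the adenosyltransferase that makes the active coenzyme, was at 36.5, 33.5, 31.0, 34.9 and 34.7 CPM in Control replicates 2, 3, 5, 7 and 8 and at 45.2, 48.9, 44.0, 45.7 and 44.5 CPM in PexRAP-AKO replicates 1, 2, 3, 5 and 6. Each PexRAP-AKO library was above each Control library, and Mmab rose by a log2 fold change of 0.42 (SE 0.06, edgeR adjusted p = 0.0173). The call was lost without any 1 of Control replicates 5, 7 and 8 or PexRAP-AKO replicates 2 and 5 (adjusted p = 0.0547 to 0.0820), with skeletal muscle markers as a covariate (0.0613), with the replicate number as a block in 6 libraries (0.219) and without Control replicate 8 and PexRAP-AKO replicate 6 (0.104). With the brown marker mean as a covariate it was kept, at 0.46 (adjusted p = 0.0437).

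Mmachc, which strips the upper ligand from incoming cobalamin, was at 16.1 to 19.1 CPM in Control libraries and 20.7 to 27.2 CPM in PexRAP-AKO libraries, with no overlap. Its log2 fold change was 0.36 (SE 0.09, edgeR adjusted p = 0.125). Mmadhc, which directs cobalamin to mitochondria or cytosol, was at 0.20 (adjusted p = 0.185) and Mmaa, which guards the mutase, at 0.25 (adjusted p = 0.363) in edgeR's test. With the brown marker mean as a covariate Mmaa was at 0.13.

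Of 5 genes for biotin and lipoate, the prosthetic groups of the carboxylases and of E2, 4 had a positive log2 fold change and none passed. Lipt1, which transfers lipoate, was at 0.37 (SE 0.10, edgeR adjusted p = 0.159), with 9.08 to 10.7 CPM in Control libraries and 9.88 to 14.4 CPM in PexRAP-AKO libraries. Lias, the lipoate synthase, was at 0.19, Lipt2, the octanoyl transferase, at 0.13, and Btd, which recycles biotin, at 0.20. Hlcs, which attaches biotin to the carboxylases, was at -0.14 (interval -0.35 to 0.07). With the brown marker mean as a covariate Btd was at 0.13 and Hlcs at -0.04.

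The 7 genes of the valine and isoleucine arms had a median log2 fold change of 0.08, and none passed. Acadsb, the short branched-chain dehydrogenase, was at 0.01 (interval -0.18 to 0.19, and 0.10 with the brown marker mean as a covariate), Hibch at 0.08, Hibadh at 0.08 and Hsd17b10 at 0.04 on the log2 fold change scale. Aldh6a1, the methylmalonate-semialdehyde dehydrogenase, was at -0.15 (interval -0.36 to 0.05). Acad8, the isobutyryl-CoA dehydrogenase, was at 0.18 and Echs1, a hydratase also of fatty acid oxidation, at 0.21 (edgeR adjusted p = 0.336 and 0.316).

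Genes shared with fatty acid and ketone oxidation all had a positive log2 fold change and none passed edgeR. Etfdh, which hands electrons from Ivd and the other acyl-CoA dehydrogenases to ubiquinone, was at 131.12 to 229.68 CPM in Control libraries and 214.60 to 296.77 CPM in PexRAP-AKO libraries. Its log2 fold change was 0.53 (SE 0.15, adjusted p = 0.171), and 0.27 with the brown marker mean as a covariate. Etfb (0.27) and Etfa (0.09), the electron transfer flavoprotein itself, were nearer to 0, and with that covariate Etfb was at 0.11 and Etfa at 0.06. Acat1, the mitochondrial acetoacetyl-CoA thiolase, was at 354 to 428 CPM in Control libraries and 447 to 479 CPM in PexRAP-AKO libraries, with a log2 fold change of 0.21 (SE 0.07, edgeR adjusted p = 0.213). Oxct1, which activates acetoacetate, was at 0.20 (adjusted p = 0.219).

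Of 6 transporters, Slc25a44, the mitochondrial carrier of branched-chain amino acids known from brown fat, was at 93.8 to 118 CPM in Control and at 119.88 to 136.93 CPM in PexRAP-AKO. The groups did not overlap, and the log2 fold change of 0.21 (SE 0.07) did not pass edgeR (adjusted p = 0.214). With the brown marker mean as a covariate it was 0.28. At the plasma membrane, Slc7a5 was at 0.41, its heavy chain Slc3a2 at -0.13 and Slc43a1 at -0.36, none past the test, and Slc7a8 (0.07) and Slc43a2 (0.12) were nearer to 0. With the brown marker mean as a covariate Slc43a1 was at -0.18 and Slc3a2 at -0.06, and Slc43a2 (-0.13) and Slc7a8 (-0.03) changed sign. Klf15, a transcription factor known to raise Bcat2 and other genes of amino acid breakdown, was at -0.12 (interval -0.25 to 0.02).

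**Figure D4:**
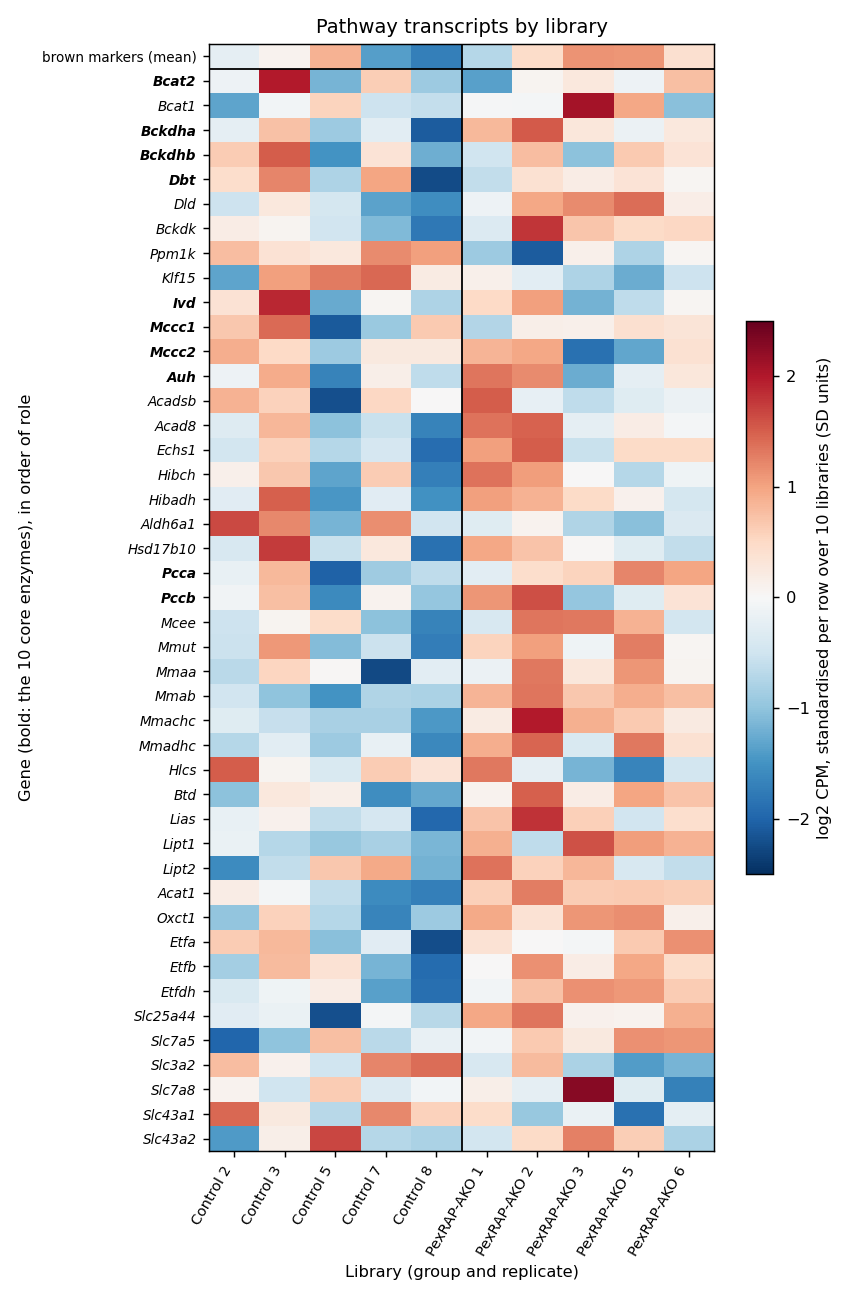
Log2 CPM of 44 genes (rows, core enzymes in bold) in the 10 libraries (columns), standardised per row in SD units, with the brown marker mean in the top row. Control replicate 5 is below the mean for all 10 core enzymes at a brown marker mean of 6.19, and Control replicate 3 is above it for all 10 at 5.36.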

How the data were processed

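The deposited table holds raw counts per gene, which the authors made with STAR 2.0.4b, Subread and featureCounts, edgeR also being named, per the submitters' processing notes. No source used here states the genome build or the strand setting. The 40724 rows hold 40501 identifiers, 117 of which recur with the same counts and were used once. Positions and exon lengths came from GENCODE M21 (GRCm38), which lists 99.6% of the identifiers.

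Counts were scaled by TMM and filtered with filterByExpr (minimum count 10, minimum total 15), leaving 14913 genes. The test was the quasi-likelihood F test of edgeR 4.0.16 (R 4.3.3) on all 10 libraries without covariates, Benjamini-Hochberg adjusted over all genes, with a threshold of 0.05. It was tested on simulated data. Standard errors are the log2 fold change over the square root of F. Log2 CPM used a prior count of 2. Ratios of counts were compared by exact permutation. Alternatives included DESeq2 1.42.0 and limma 3.58.1.

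The members, the wider list, the ratios and the marker lists were chosen with earlier results of these data known. Genes were named by rule: all members, the wider list, Dhrs7b, defining markers and the 6 genes outside the lists with a mean of at least 1 CPM, no Gm or Rik name, and the pattern most like the members' mean. Mvk, Exosc5, B3gnt8, Ggact and the antisense genes were named after their values were seen, and Gm36278 for its position. No 2 replicates agreed within sampling noise (lowest chi-square per degree of freedom 7.73 over 20 pairs). Of the wider list, 1 gene enters the counts and is not reported here by name or drawn.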

Additional observations from a re-analysis of the deposited data

Results flagged for a closer look

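Among 100 groups of 5 values (45 pathway genes, Dhrs7b and 4 ratios in each group), a single library lay far outside the rest in 5, and about 1 group in 20 does so by chance. In log2 CPM, PexRAP-AKO replicate 1 was low for Mccc1 (7.17) and high for Acadsb (8.15). Control replicate 5 was low for Acadsb (7.68). It also held the lowest value of 6 of the 10 core enzymes, but was not flagged for the level of any of them. PexRAP-AKO replicate 2 was high for Acat1 (8.90). The log2 ratio of Bckdha to Bckdhb was high in Control replicate 5 (1.71), inside the range of the PexRAP-AKO libraries (1.51 to 1.82).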

How the results depend on the processing

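The count of 0 core enzymes past the threshold was the same in all 22 alternatives, including a threshold of 0.1. Over the 210 single values, the lowest adjusted p was 0.173, for Pcca without Control replicate 3. Bckdha, Auh, Pcca and Pccb kept a positive log2 fold change in 21 of 21 fits, while Bcat2, Bckdhb, Dbt, Ivd, Mccc1 and Mccc2, all close to 0, changed sign in some. Over all genes, 15 were called (14 higher), and the count moved to 26 with no low-count filter, 439 with DESeq2, 7 with the brown and 7 with the muscle marker mean, 3 with the replicate block, 98 at a threshold of 0.1 and 5 without Control replicate 8 and PexRAP-AKO replicate 6. Without 1 library the count was 3 (no Control replicate 8) to 58 (no PexRAP-AKO replicate 1), with 43 when Control replicate 3 was out, 5 when Control replicate 7 was out, and 6 when Control replicate 2 or 5 or PexRAP-AKO replicate 2 or 5 was out. The higher share was 309 of 439 with DESeq2, which gave no adjusted p for 4626 genes. Of the 35 wider genes 1 was called, Mmab. With DESeq2 there were 6, with the muscle marker mean 0, with the replicate block 0, without the 2 named libraries 0, and 0 to 1 without 1 library. Mmab kept its call in 13 of 21 fits (log2 fold change 0.35 to 0.46). The difference in the log2 ratio of Bckdk to Ppm1k was 0.44 to 0.63 without 1 library and 0.57 without both named libraries. For Bckdha to Bckdhb it was 0.12 to 0.20 without 1 library. The cause of these moves was not tested, though leaving out libraries also leaves fewer to fit. The replicate block used numbers 2, 3 and 5, which both groups have, in 6 libraries. Deviations of same-numbered libraries correlated at -0.02, -0.08 and 0.36, and 1 of the 6 libraries, PexRAP-AKO replicate 5, correlated best with its own number, so same-numbered samples were not treated as paired. The median log2 fold change of the wider genes was 0.11 with library totals alone, a scaling that put the median of all genes at -0.07. The members had 1041 or more reads in each library, and all intervals rest on 5 libraries a group.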
